A study of Mus musculus with 12 samples.

Results

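A set of 8 genes that make, move or use ketone bodies were described in mouse liver: Acat1 and Bdh1 for synthesis, Bdh2 as a cytosolic dehydrogenase, Slc16a1, Slc16a6 and Slc16a7 for transport across membranes, and Oxct1 and Aacs for use. They were taken from the deposited table by gene name, and 8 of its 27105 genes matched, each once. The animals were on a control diet (6 livers) or a ketogenic diet (6 livers), which is rich in fat and poor in carbohydrate. RNA of whole liver was sequenced, and the series design calls the 6 livers of each diet biological replicates. No source used here gives strain, sex, age, hour of collection, make-up of the diets or time on them, or any genotype or treatment other than diet. Livers are named by diet and replicate number.

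Ketone bodies are made in the mitochondria of hepatocytes when much fatty acid is oxidised. Acetyl-CoA units are joined to acetoacetyl-CoA, acetoacetate is formed from it by further steps, and part of it is reduced to beta-hydroxybutyrate. Both leave the cell through monocarboxylate transporters of the Slc16 family and are burned in heart, muscle, brain and kidney, where the enzyme encoded by Oxct1 activates acetoacetate. Hepatocytes are known to hold little of that enzyme, so that liver exports ketone bodies rather than burning them.

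The libraries held 30.2 to 33.5 M (mega) counts. Ketogenic 4 stood apart, with a median correlation of 0.916 to the other livers of its diet against 0.961 to 0.979 for the other 11 libraries, and its deviation from the other libraries followed transcript length (Spearman rho -0.496 across genes, against -0.31 to 0.312). Results that passed the threshold are therefore also given without that library. Hepatocyte markers were abundant in all livers (Alb at a mean of 73246 CPM on the control and 59447 CPM on the ketogenic diet; CPM, counts per 1 M counts of the TMM-scaled library). Of 7 hepatocyte markers 1 was called, against 3.78% of all genes tested. It was Cyp2e1, which rose (0.74, adjusted p = 0.0232 in edgeR, and 0.77 with adjusted p = 0.0193 without ketogenic 4). Its call was lost without control 1 or 3 or ketogenic 6 (0.65 to 0.83 over 12 fits, adjusted p 0.0124 to 0.0588). Haemoglobin genes summed to 13.9 to 53.6 CPM on the control and 30.6 to 90.4 CPM on the ketogenic diet, where ketogenic 4 was highest and the next liver was at 42.7 CPM. Adipocyte markers were at 0 to 0.106 CPM in sum, with Lep not analysed here, and the sums of muscle and exocrine pancreas markers did not exceed 1.41 CPM. In whole liver, fewer cells of a type and less RNA per cell cannot be told apart.

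On the ketogenic diet the synthesis genes Bdh1 and Acat1 rose, by 2.07-fold and 1.68-fold, and the transporter gene Slc16a6 fell to 0.397 of its control level. Slc16a1, Slc16a7, Bdh2, Oxct1 and Aacs did not pass the threshold. Of the 8 genes, 2 rose and 1 fell in edgeR's quasi-likelihood test, where the threshold was 0.05 for p after Benjamini-Hochberg adjustment. Over all 13995 genes tested, 2.34% rose and 1.44% fell by that rule, 3.78% in all. The median log2 fold change of the 8 genes was -0.0019, against -0.0010 over all genes tested. The diets did not overlap in CPM for the same 3 genes, 2 of them higher and 1 lower on the ketogenic diet, against 3.54% of all genes tested (2.17% higher and 1.37% lower). Each log2 fold change is that of the ketogenic over the control diet ± SE, and its 95% interval is for the single gene, not adjusted over genes.

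**Figure D1:**
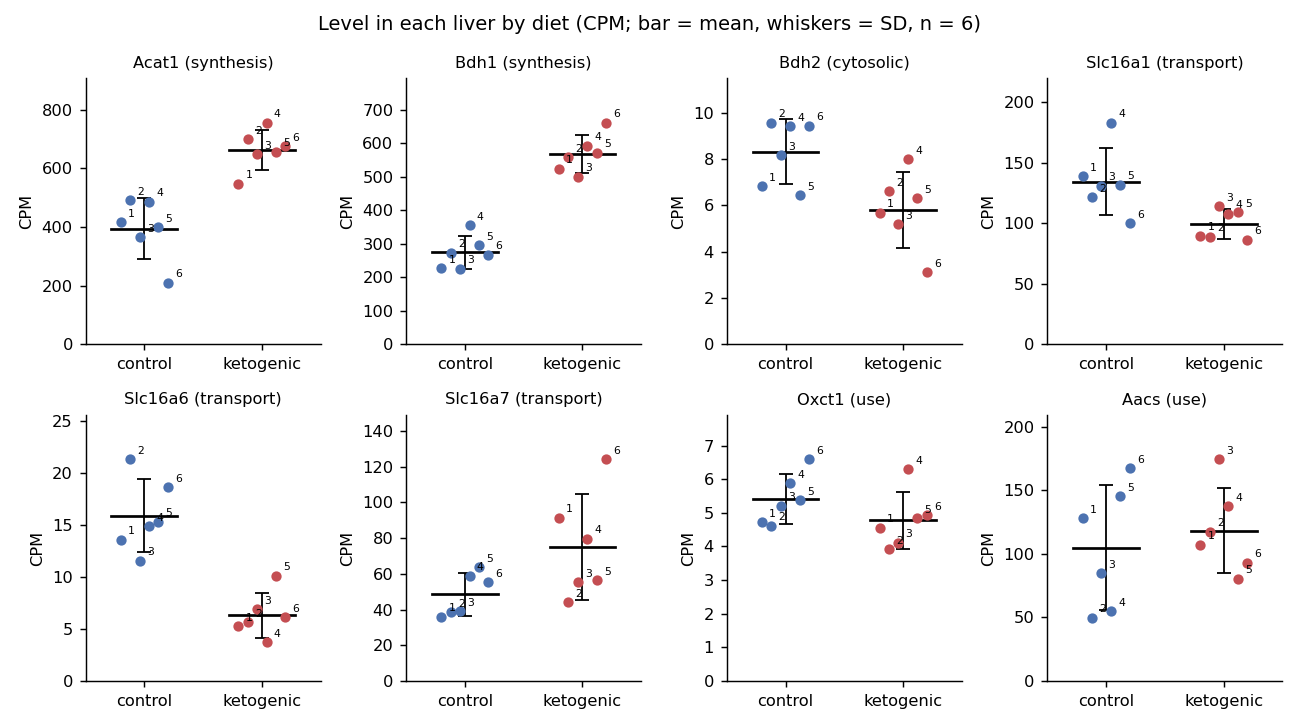
Level of each gene in CPM (vertical axis from 0) in the 6 control and 6 ketogenic livers. Each point is 1 liver with its replicate number, the bar is the mean and the whiskers are the SD. The 2 diets do not overlap for Acat1, Bdh1 and Slc16a6 and overlap for the other 5 genes.

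Bdh1 (ENSMUSG00000046598) encodes the mitochondrial dehydrogenase that turns acetoacetate into beta-hydroxybutyrate. The deposited table places it on chromosome 16, 31241098 to 31277719, on the plus strand, and no source used here states the genome build of that table. Because Bdh1 had the smallest p of the 8 genes, its promoters are shown first. RefSeq on GRCm38.p6 gives 2 starts for it, and the 250 bases before each are printed 5′ to 3′ on the plus strand. They lie at chr16:31422047-31422296 and chr16:31428503-31428752. Both lie beyond the deposited end of the gene, so the deposited positions are not those of GRCm38. Deposited and RefSeq positions therefore cannot be set side by side.
Bdh1, first start: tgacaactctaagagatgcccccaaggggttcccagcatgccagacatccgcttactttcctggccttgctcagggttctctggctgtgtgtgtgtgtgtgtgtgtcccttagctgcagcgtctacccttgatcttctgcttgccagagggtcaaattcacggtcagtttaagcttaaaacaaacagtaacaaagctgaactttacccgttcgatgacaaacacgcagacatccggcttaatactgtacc
Bdh1, second start: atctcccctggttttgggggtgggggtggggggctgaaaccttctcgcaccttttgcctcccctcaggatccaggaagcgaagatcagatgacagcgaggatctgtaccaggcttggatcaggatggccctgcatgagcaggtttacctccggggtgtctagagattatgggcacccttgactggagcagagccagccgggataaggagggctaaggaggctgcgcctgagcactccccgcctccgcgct
These windows held 49.6% and 60.8% G and C, with 7 and 9 CpG pairs, against medians of 52.4% and 6 over 32851 mouse promoter windows. Each was searched on both strands, with the 50 bases after the start, for 6 motifs. They were a DR1 element of AGGTCA, N and AGGTCA (in 0.0396% of all windows), its single element AGGTCA (16.3%), the sterol element TCACNCCAC (1.24%), the E-box CACGTG (7.15%), the CRE TGACGTCA (1.79%) and its shorter form TGACG (20.8%). The short motifs are contained in the longer elements. None of these letters was found in either Bdh1 window, which is why both are in lower case.

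Bdh1 ran from 225 through a median of 271 to 355 CPM over the 6 control livers, and from 499.6 through 565 to 661 CPM over the 6 ketogenic livers. All 6 ketogenic livers lay above the highest control liver, which was control 4. The mean went from 274 ± 48.6 to 568 ± 56.5 CPM (SD, n = 6 per diet), a log2 fold change of 1.05 ± 0.13 (95% interval 0.78 to 1.32, adjusted p = 0.000409 in edgeR). By p it ranked 25 among the genes tested. Without ketogenic 4 the change was 1.04 (adjusted p = 0.000587 in edgeR). The relative spread between livers was 17.7% of the mean on the control diet and 9.96% on the ketogenic diet.

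Acat1 (ENSMUSG00000032047, chromosome 9, 53491822 to 53521682, minus strand) encodes the mitochondrial acetoacetyl-CoA thiolase. The enzyme works in both directions, and it serves ketone body synthesis, ketone body use and the breakdown of isoleucine. Its level ran from 209.7 through a median of 408 to 491 CPM on the control diet and from 548 through 667 to 756 CPM on the ketogenic diet. Control 6 was the lowest liver, at 209.7 CPM, and the next control liver was at 366 CPM. All 6 ketogenic livers were above all 6 control livers. The log2 fold change was 0.75 ± 0.17 (95% interval 0.38 to 1.12, adjusted p = 0.0275 in edgeR) and 0.71 without ketogenic 4 (adjusted p = 0.0334). Without control 6 it was 0.62 (adjusted p = 0.0121). Leaving out control 1 or 3, or one of ketogenic 2, 3, 5 and 6, ended the call (adjusted p 0.0507 to 0.0709 in edgeR), while the log2 fold change stayed between 0.62 and 0.82 over the 12 fits that leave out 1 library.

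Bdh2 (ENSMUSG00000028167, chromosome 3, 134986982 to 135010187, plus strand) encodes a cytosolic short-chain dehydrogenase described as a second beta-hydroxybutyrate dehydrogenase and, in mouse, as an enzyme of siderophore formation. It was a low gene, with 103 to 313 counts per library. On the control diet it ran from 6.43 through a median of 8.79 to 9.56 CPM, and on the ketogenic diet from 3.10 through 5.98 to 7.99 CPM. Of the 6 ketogenic livers, 4 lay below the lowest control liver, and ketogenic 6 had the lowest value. In log2 terms the change was -0.52 ± 0.19 (95% interval -0.93 to -0.10, adjusted p = 0.176 in edgeR), which did not pass the threshold.

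Slc16a1 (ENSMUSG00000032902, chromosome 3, 104545984 to 104565778, plus strand) encodes MCT1, the widespread carrier of lactate, pyruvate and ketone bodies. Its promoter is shown because it was the only one of the 6 windows found for the 8 genes that held any of the motifs above. Those windows belonged to 5 genes (Bdh1, Slc16a1, Bdh2, Aacs and Oxct1). The 250 bases before its start, at chr3:104638414-104638663 on the plus strand of GRCm38.p6 in RefSeq, are printed 5′ to 3′ with the E-box in capitals.
Slc16a1: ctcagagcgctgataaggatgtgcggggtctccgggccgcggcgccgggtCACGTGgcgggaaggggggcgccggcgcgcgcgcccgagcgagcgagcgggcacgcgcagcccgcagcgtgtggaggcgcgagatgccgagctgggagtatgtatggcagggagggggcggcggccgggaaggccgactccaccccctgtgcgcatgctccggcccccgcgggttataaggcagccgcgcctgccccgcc
The E-box begins at position -200 from the start. This window, too, lies beyond the deposited end of its gene, because the deposited positions are not those of GRCm38. The window held 76.4% G and C and 37 CpG pairs.

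Slc16a1 ran from 99.9 through a median of 131 to 183 CPM on the control diet and from 86.3 through 98.8 to 114 CPM on the ketogenic diet. Of the 6 ketogenic livers, 3 lay below the lowest control liver, control 6, and all 6 lay below the control mean of 134 CPM. The log2 fold change was -0.44 ± 0.14 (95% interval -0.73 to -0.14, adjusted p = 0.0990 in edgeR), so it was not called. DESeq2 called it (-0.44, adjusted p = 0.0410), and so did edgeR without control 6 (-0.51, adjusted p = 0.0499).

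Slc16a6 (ENSMUSG00000041920, chromosome 11, 109341681 to 109364424, minus strand) encodes MCT7, which is known in zebrafish for the export of beta-hydroxybutyrate from hepatocytes. It ran from 11.6 through a median of 15.1 to 21.3 CPM on the control diet and from 3.74 through 5.91 to 10.1 CPM on the ketogenic diet. All 6 ketogenic livers lay below the lowest control liver, control 3, and ketogenic 5 came nearest to it. Its log2 fold change was -1.33 ± 0.21 (95% interval -1.79 to -0.88, adjusted p = 0.00271 in edgeR). Without ketogenic 4, the liver with the lowest value, it was -1.22 (adjusted p = 0.00310). The call was kept in all 12 fits that leave out 1 library (adjusted p 0.00118 to 0.00844).

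The ends of Slc16a6 overlap, on the opposite strand, 225 bases of Arsg and 1959 bases of Amz2. No source used here says whether counting used strand, so reads in these stretches may be shared. Arsg was at 42.6 ± 9.12 and 45.9 ± 13.5 CPM (log2 0.11, adjusted p = 0.876 in edgeR), and Amz2 at 14.3 ± 1.57 and 15.5 ± 1.77 CPM (log2 0.12, adjusted p = 0.670; SD, n = 6). Neither neighbour passed the threshold, and both had a mean slightly higher on the ketogenic diet, where Slc16a6 was lower. The genes that overlap Slc16a1, Slc16a7, Oxct1 and Bdh1 had at most 15 counts in a library, and none in the table overlapped Acat1, Bdh2 or Aacs.

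Slc16a7 (ENSMUSG00000020102, chromosome 10, 125055139 to 125225334, minus strand) encodes MCT2, a carrier with high affinity for monocarboxylates. It ran from 36.0 through a median of 47.2 to 63.6 CPM on the control diet and from 44.1 through 68.0 to 124 CPM on the ketogenic diet. Control 1, 2 and 3 lay between 36.0 and 39.1 CPM, and control 4, 5 and 6 between 55.2 and 63.6 CPM. Ketogenic 1, 4 and 6 lay above every control liver, and the other 3 fell within the control range. The log2 fold change was 0.63 ± 0.24 (95% interval 0.12 to 1.14, adjusted p = 0.179 in edgeR), and it was not called. The 3 transporter genes thus had 1 called fall and 2 values of opposite sign that were not called.

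Oxct1 (ENSMUSG00000022186, chromosome 15, 4055865 to 4184826, plus strand) encodes the transferase SCOT, which activates acetoacetate for burning. It had 134 to 197 counts per library. It ran from 4.61 through a median of 5.29 to 6.59 CPM on the control diet and from 3.92 through 4.70 to 6.30 CPM on the ketogenic diet. The diets overlapped, and ketogenic 4 had the highest ketogenic value. Its log2 fold change was -0.18 ± 0.14 (95% interval -0.48 to 0.13, adjusted p = 0.613 in edgeR). The interval spans 0.716 to 1.092 times the control level.

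Since hepatocytes are known for little Oxct1, markers of other liver cells are given beside it. The 9 immune markers summed to 316 to 515 CPM on the control and 352 to 549 CPM on the ketogenic diet. The 6 endothelial markers summed to 287 to 369 and 313 to 412 CPM, the 6 stellate cell markers to 258 to 454 and 264 to 501 CPM, and the 5 bile duct markers to 40.1 to 86.2 and 40.7 to 149 CPM. Ketogenic 4, the liver with the most Oxct1 on its diet, set the upper end for bile duct markers (the next ketogenic liver was at 67.5 CPM) and for stellate cell markers (next at 394 CPM). The same liver had the lowest endothelial sum of its diet, 313 CPM. Its immune sum, 402 CPM, was below the 549 CPM of ketogenic 6. None of these markers was called and none was at 0 in all libraries. Their part in the level of Oxct1 was not tested.

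Aacs (ENSMUSG00000029482, chromosome 5, 125552878 to 125594474, plus strand) encodes the cytosolic acetoacetyl-CoA synthetase, which feeds acetoacetate into lipid synthesis. It ran from 49.6 through a median of 106 to 167 CPM on the control diet and from 80.4 through 112 to 174 CPM on the ketogenic diet. Control 2, 3 and 4 were at 49.6, 84.6 and 54.9 CPM, and control 1, 5 and 6 at 128, 145 and 167 CPM. Its relative spread on the control diet, 46.7%, was the largest of the 8 genes on that diet. In log2 terms the change was 0.17 ± 0.29 (95% interval -0.45 to 0.80, adjusted p = 0.848 in edgeR). The interval spans 0.73 to 1.74 times the control level.

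**Figure D2:**
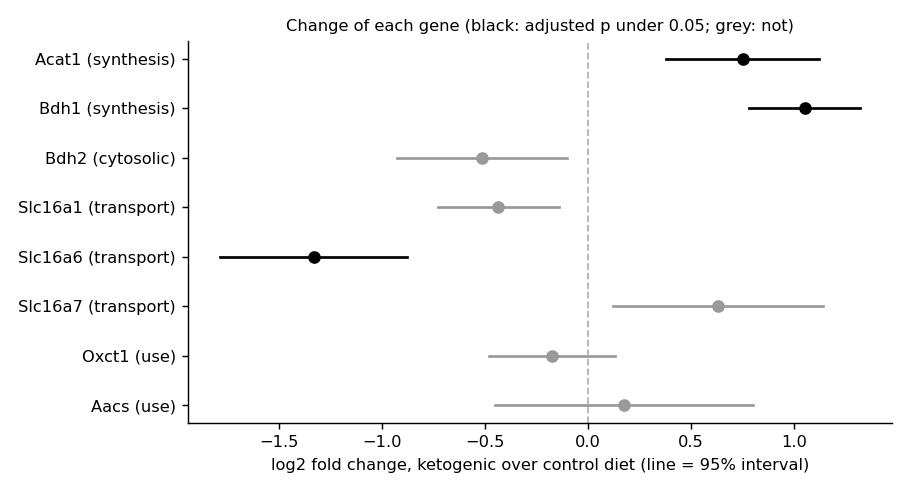
Log2 fold change of each gene, ketogenic over control diet (horizontal axis), with its 95% interval from edgeR. Black marks an adjusted p under 0.05 and grey the rest. Bdh1 at 1.05 and Acat1 at 0.75 lie right of 0, and Slc16a6 at -1.33 lies left of it.

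Levels of different genes were compared per kilobase of merged exons. On the control diet Acat1 was highest with 105 ± 27.5 CPM per kb, followed by Bdh1 with 70.4 ± 12.5, Slc16a1 with 30.4 ± 6.20, Aacs with 27.2 ± 12.7, Slc16a7 with 4.10 ± 1.02, Slc16a6 with 3.26 ± 0.724, Bdh2 with 1.95 ± 0.330 and Oxct1 with 1.46 ± 0.201 CPM per kb (SD, n = 6). The ranges of Acat1 and Bdh1 overlapped, as did those of Slc16a1 and Aacs, of Slc16a7 and Slc16a6, and of Bdh2 and Oxct1, while each of these pairs was separate from the next. Averaged over both diets, Acat1 stood above 97.6% and Bdh1 above 96.9% of the genes tested by this measure, and Oxct1 above 33.9%.

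On the ketogenic diet Acat1 reached 177 ± 18.2 and Bdh1 146 ± 14.5 CPM per kb, and Acat1 was above Bdh1 in all 6 livers though their ranges overlapped. Aacs at 30.7 ± 8.75 stood before Slc16a1 at 22.4 ± 2.80 CPM per kb, again with overlap. Slc16a6 went from a place between Slc16a7 and Bdh2 to 1.29 ± 0.439 CPM per kb, beside Bdh2 at 1.37 ± 0.385 and Oxct1 at 1.29 ± 0.229. Neighbours among these last 3 genes overlapped in their ranges.

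**Figure D3:**
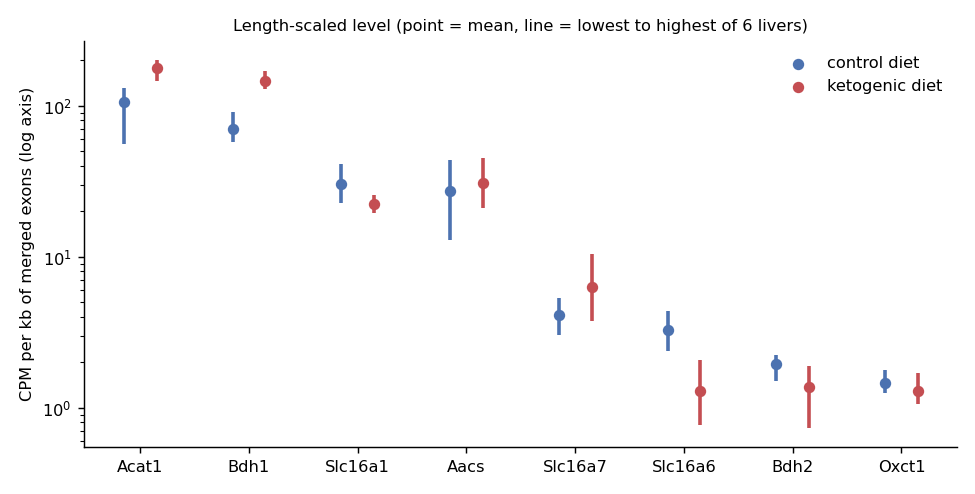
Level per kilobase of merged exons (CPM per kb, log axis) of the 8 genes, in the order of the control diet. Points are means and lines run from the lowest to the highest of the 6 livers of a diet. Acat1 and Bdh1 are at the top in both diets, and Slc16a6 drops from 3.26 to 1.29 CPM per kb.

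Synthesis was set against transport and use as a ratio of CPM within each liver, with no test. Of 10 ratios of Bdh1 or Acat1 to the 3 transporter genes, Oxct1 and Aacs, all 10 had a higher mean log2 on the ketogenic diet, and in 6 the diets did not overlap. The largest difference was that of Bdh1 to Slc16a6, from a log2 ratio of 4.12 ± 0.33 to 6.55 ± 0.51 (SD, n = 6), a 5.41-fold difference. The ratio of Bdh1 to Slc16a1 went from 1.03 ± 0.27 to 2.52 ± 0.27 and that of Bdh1 to Oxct1 from 5.66 ± 0.24 to 6.91 ± 0.21, also without overlap. The ratios of Bdh1 to Slc16a7 (2.51 ± 0.23 and 3.00 ± 0.48) and to Aacs (1.52 ± 0.86 and 2.31 ± 0.49) overlapped between the diets. The same 2 genes gave overlapping ratios to Acat1. Bdh1 and Acat1 had larger log2 fold changes (1.05 and 0.75) than every gene they were divided by (at most 0.63, Slc16a7). The direction of all 10 ratios thus follows from the single genes. The separation follows in part from the calls of Bdh1, Acat1 and Slc16a6 above. Neither is separate support for them, and the share of other gene pairs with separate ratios was not computed.

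**Figure D4:**
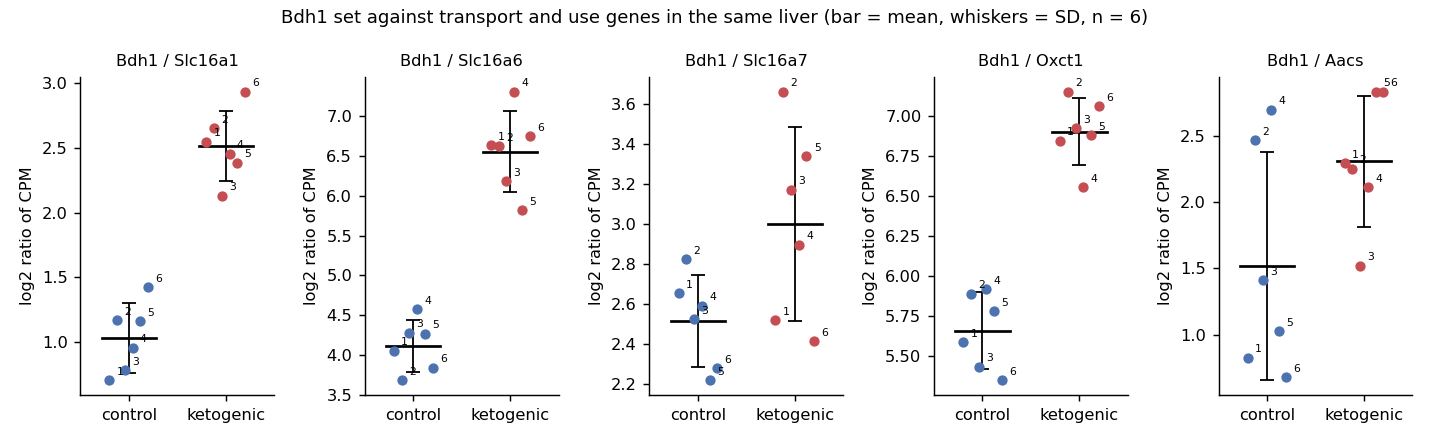
Log2 ratio of the CPM of Bdh1 to that of 5 transport and use genes in the same liver (vertical axes, each with its own scale that does not start at 0). Points are livers with their replicate number, bars are means and whiskers SD. The diets are apart for Slc16a1, Slc16a6 and Oxct1 and overlap for Slc16a7 and Aacs.

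Within the diets, pairs of the 8 genes varied together to different degrees and in both directions. After removal of the diet means from log2 CPM, Pearson's r over the 12 livers ran from -0.576 (Acat1 and Aacs, Spearman's rho -0.427) to 0.643 (Acat1 and Slc16a1, rho 0.371) among the 28 pairs. Both extremes were stronger in the 6 control livers, with r = -0.725 for Acat1 and Aacs and 0.746 for Acat1 and Slc16a1, than in the 6 ketogenic livers, with 0.19 and 0.27, so that the first had the opposite sign there. Control 6 was the lowest control liver for Acat1 (209.7 CPM) and Slc16a1 (99.9 CPM) and the highest for Aacs (167 CPM). These r were not computed without it. Acat1 and Bdh1 had r = 0.294 (rho 0.483). Slc16a7 went with Bdh1 (r = 0.604, rho 0.601; 0.771 on the control and 0.573 on the ketogenic diet) and with Oxct1 (r = 0.590, rho 0.601; 0.739 and 0.516). These are descriptions without a test, and the livers of a diet share its mean.

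From 9521 protein-coding genes with mean levels of 5 CPM or more, the 2 with the highest r to each gene over the 12 livers were Acsf3 (0.955) and Mapk1ip1 (0.930) for Acat1, and Bbox1 (0.855) and Lpin2 (0.851) for Bdh1. For the transporter genes they were Clstn3 (0.875) and Pex11a (0.830) for Slc16a1, Rbm10 (0.917) and Mrtfa (0.900) for Slc16a6, and Hsd17b6 (0.899) and Usp2 (0.893) for Slc16a7. Keg1 (0.895) and St13 (0.877) came first for Bdh2, and Vars (0.936) and Aen (0.924) for Aacs. For Oxct1 they were Rnf11 (0.942) and Lyz2 (0.937), and Lyz2, a lysozyme gene of myeloid cells, is on the immune list above. How the other genes of that list varied with Lyz2 over the 12 livers was not computed. Ketogenic 4 was highest of its diet for Lyz2 (161 CPM). It was lowest of its diet for Adgre1 (22.2 CPM), Csf1r (62.1 CPM), Clec4f (123 CPM) and Marco (2.24 CPM). Cd68, Ptprc, Cd3e and Cd79a lay in between there. Control 6 was highest of its diet for Lyz2 (146 CPM), Adgre1 (46.0 CPM), Cd68 (18.7 CPM), Csf1r (105 CPM) and Marco (23.3 CPM). It was not highest for Clec4f, Ptprc, Cd3e and Cd79a. The r values above are the highest of many and get no p.

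A list of 10 other genes held cytosolic thiolases, a second pair of SCOT genes, a receptor, a deacetylase, sodium-coupled carriers and transporter chaperones. Of these, 6 were tested, 1 rose and 5 did not pass the threshold, with a median log2 fold change of 0.21. The share that rose over all genes tested was 2.34%. Acat2, the cytosolic thiolase that opens sterol synthesis, ran from 36.6 to 64.3 CPM on the control and from 72.2 to 123 CPM on the ketogenic diet, with no overlap (1.15 ± 0.16, adjusted p = 0.00125 in edgeR, and 1.08 with adjusted p = 0.00182 without ketogenic 4). Its neighbour and near copy Acat3, with which it may share reads, was at -0.11 ± 0.12 (adjusted p = 0.750). Bsg, which encodes the chaperone basigin that brings MCT1 to the membrane, was at 381 ± 30.4 and 419.8 ± 99.5 CPM (0.14 ± 0.14, adjusted p = 0.708). The 4 genes not tested (Oxct2a, Oxct2b, Slc5a8 and Slc5a12) did not exceed 0.106 CPM in any liver.

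Of 11 other Slc16 genes, 9 were tested, 2 rose and 7 did not pass the threshold, with a median log2 fold change of 0.16. Over all genes tested, 2.34% rose and 3.78% were called in either direction. Slc16a11 rose from 12.8 ± 3.12 to 20.7 ± 3.81 CPM (SD, n = 6; 0.69 ± 0.17, adjusted p = 0.0359 in edgeR), and Slc16a13 from 4.77 ± 2.18 to 10.3 ± 2.32 CPM (1.11 ± 0.27, adjusted p = 0.0369). They are neighbours on chromosome 11 (70103578 to 70107243 and 70107615 to 70111890) on opposite strands. For both genes the diets overlapped. Leaving out any of control 2, 3, 5 and 6 and ketogenic 1, 2, 5 and 6 ended the call of Slc16a11 (log2 0.62 to 0.79, adjusted p 0.0166 to 0.0811 over 12 fits). For Slc16a13 this held for control 1, 2, 3 and 5 and ketogenic 1, 2, 3, 4 and 5 (log2 0.96 to 1.34, adjusted p 0.00995 to 0.0833). Without ketogenic 4, Slc16a11 was at 0.65 (adjusted p = 0.0442 in edgeR) and Slc16a13 at 1.09 (adjusted p = 0.0532). Slc16a5, named after its values were seen because DESeq2 called it, had the largest log2 fold change of the list (1.20 ± 0.41) and was not called by edgeR (adjusted p = 0.141). The more abundant Slc16a10, a carrier of aromatic amino acids, was at 0.11 ± 0.17 (adjusted p = 0.828).

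Of 18 regulators of ketogenesis and of fatty acid entry into mitochondria, all were tested and none passed the threshold in edgeR. Over all genes tested, 3.78% passed it. At an unadjusted p under 0.05 there were 5 of the 18, against 16.7% of all genes tested. Limma-voom called 0, and DESeq2 called 2, both lower, against 7.35% of all genes (3.14% lower). The median log2 fold change was -0.04. The most abundant were the nuclear receptor gene Hnf4a, at 766 ± 105 and 662 ± 154 CPM (-0.21 ± 0.16, adjusted p = 0.597 in edgeR), and Cpt1a, the gate of fatty acid entry, at 559 ± 206 and 726 ± 230 CPM (0.38 ± 0.25, adjusted p = 0.520). The 2 genes that DESeq2 called lower, chosen after their values were seen, were Acaca, for the carboxylase that makes malonyl-CoA (-0.69, adjusted p = 0.0166), and Mlxipl, for the sugar-sensing factor ChREBP (-0.575, adjusted p = 0.0142).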

How the data were processed

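Total RNA of 12 mouse livers was sequenced from NEBNext Ultra libraries, per the labels' protocols. The authors deposited raw counts, whole-number reads per gene and library without normalization. The submitters' processing notes name, with no role, HISAT2 2.1.0, fastp 0.19.3, Cufflinks and StringTie 1.3.4d. No source used here gives the counting program, strand setting, annotation or genome build, and positions are printed as deposited. These positions do not match those of GRCm38, on which the promoters are given. No molecular identifiers are mentioned either, so amplification copies are counted.

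Diets were compared in edgeR 4.0.16 (R 4.3.3) over all genes: filterByExpr left 13995, TMM factors scaled the libraries, and the robust quasi-likelihood test had diet as its only term. SE is the log2 fold change divided by the square root of F. CPM use TMM-scaled sizes. Between livers of a diet, chi-square per degree of freedom was at least 40.8, so none was a duplicate. Merged exon lengths came from GENCODE M21 (GRCm38) by gene ID (13975 tested genes matched), and promoters from RefSeq. In simulated counts for this comparison (13851 genes), the test called 79 of 100 genes with a log2 change of 1 and 97 of 100 with one of 2, and 7 of 183 calls were unchanged genes. The changed genes were picked above a minimum mean count. No simulated library stood apart as ketogenic 4 did or followed gene length, so these shares may differ in the real counts.

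Genes named are the 8 members, the called genes of 3 related lists with the 2 most abundant others of each, and the 2 genes most like each member. Members and lists were chosen with earlier results of these data known. Some genes of the pathway and of these lists are not reported here. Alternatives were DESeq2 1.42.0, limma-voom (limma 3.58.1), other scalings and filters, removal of each library's trend on gene length, the replicate number as a block, a threshold of 0.01, and each library left out.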

Additional observations from a re-analysis of the deposited data

How the results depend on the processing

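Each refit gave 1 value per gene, 168 values in all for the 8 genes. None reversed direction: 159 kept their side of the threshold, 7 lost a call and 2 gained one. Correlations of the deviations of same-numbered livers between the diets ran from -0.352 to 0.528. Differently numbered livers were not compared, so whether replicate numbers pair the livers was not tested. With the replicate block, Acat1 lost its call (0.79, adjusted p = 0.0631; all its alternatives 0.00167 to 0.0709), and 268 genes were called in all against 529. With DESeq2, Slc16a1 was called (-0.44, adjusted p = 0.0410; all its alternatives 0.0410 to 0.197) and 1028 genes in all. At an adjusted p under 0.01, 2 of the 8 and 197 of all genes were called.

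Without a filter on low counts, 1 other Slc16 gene was called in place of 2, and 3 with DESeq2 or with the length trend removed under the replicate block, where Slc16a5 was added (1.20, adjusted p = 0.0319, and 1.17, adjusted p = 0.0430). DESeq2 and the removal of the length trend each called 2 regulators of ketogenesis in place of 0, Acaca and Mlxipl. Among all genes, 426 were called without the filter and 1028 with DESeq2, against 529. Removal of the length trend called 697 of all genes, or 414 under the replicate block. With 1 library left out, log2 fold changes ran from 0.62 to 0.82 for Acat1, 1.00 to 1.14 for Bdh1, -0.63 to -0.39 for Bdh2, -0.27 to -0.11 for Oxct1, 0.03 to 0.36 for Aacs, -0.51 to -0.33 for Slc16a1, -1.52 to -1.22 for Slc16a6 and 0.43 to 0.74 for Slc16a7. Calls then ran from 2 to 4 among the 8 genes, 0 to 2 among other Slc16 genes, 0 to 1 among regulators, stayed at 1 among other ketone body genes, and were 319 (without control 3) to 761 (without ketogenic 4) overall. The causes were not tested. With library size as the scale, 448 genes rose and 127 fell, against 328 and 201. The lowest counts per library among the 8 genes were those of Bdh2 (103 to 313), Slc16a6 (117 to 698) and Oxct1 (134 to 197), and the largest SE were those of Aacs (0.29) and Slc16a7 (0.24).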
